A study of Mus musculus with 18 samples.

Results

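The 155 mouse zinc finger genes that carry a bare Zfp number, from Zfp600 to Zfp999, were measured in epidermis with and without the aryl hydrocarbon receptor (AhR), before and after tape stripping. The rule that defines them uses the name and no measured value: every row of the deposited table mapped to a single such symbol was taken. They make up 155 of the 22180 genes that the table names. The 155 genes had 167 rows, and where a gene had several, as 10 did, its most variable row over the 18 arrays stood for it. All 155 entered the tests, since no filter on low values was applied. The mouse gene table in use lists 173 genes with names in this range, and 154 of the 155 measured genes matched it, Zfp640 being the exception.

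Epidermal sheets came from the shaved back skin of female mice on a B6;129 background. The KO mice carried AhR-/- (the line B6.129-AhRtm1Bra/J, which lacks the gene in all cells of the body), and the WT mice were their AhR+/+ littermates. Skin was left alone (0 h) or tape stripped 5 times with Tegaderm film and collected 6 h or 24 h later, with 3 arrays for each of KO 0 h, KO 6 h, KO 24 h, WT 0 h, WT 6 h and WT 24 h. The sources used here do not give the animals' ages. Tape stripping pulls off the outermost cornified layers and so injures the barrier.

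Zinc finger proteins of this kind bind DNA through tandem fingers, each of which reads a few bases. Many carry a KRAB domain, which recruits the corepressor TRIM28 (KAP1) and through it the histone methyltransferase SETDB1, so that the bound site is packed into heterochromatin marked by methylated histone H3 lysine 9. Transposable elements are the best-known targets, and the genes often lie in tandem arrays of close copies. A few members have roles in epithelia, above all Zfp750, whose human counterpart ZNF750 acts downstream of p63 and drives the final differentiation of keratinocytes.

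Values are on a log scale, taken as log2 although the base is not stated, and were centred row by row on the median of the 18 arrays, so they show how arrays differ but not how abundant an mRNA was, and no gene's level can be set against another's. Signal over background, and with it whether a gene was detected at all, could not be assessed, nor could the epidermal markers be checked as levels. Array medians over all rows lay between -0.02 and 0.01 log2, and the SDs within an array between 0.134 and 0.222 log2. Ahr itself, in the single row that measured it, was at -0.13, 0.04 and -0.02 log2 in KO 0 h arrays, -0.63, -0.65 and -0.77 in KO 6 h arrays and -0.59, -0.74 and -0.64 in KO 24 h arrays. In WT it was at 0.63, 0.16 and 0.07 log2 in 0 h arrays, 0.06, 0.58 and 0.64 in 6 h arrays, and -0.01, 0.12 and 0.01 in 24 h arrays. Every KO array lay below every WT array of its time. Of all 23521 rows, 1813 did so at 0 h, 2427 at 6 h and 1536 at 24 h. The KO difference from WT was -0.32 log2 at 0 h (limma adjusted p = 0.556). It was -1.11 log2 at 6 h (limma adjusted p = 0.00549) and -0.70 log2 at 24 h (limma adjusted p = 0.22). Of the single times only 6 h passed. Averaged over all times it was -0.71 log2, which passed (limma adjusted p = 0.000939). Within KO, the Ahr difference from 0 h was -0.65 log2 at 6 h (limma adjusted p = 0.0209). At 24 h it was -0.62 log2 (limma adjusted p = 0.0147). In WT it was 0.14 log2 at 6 h and -0.25 log2 at 24 h, and neither passed. The difference between these KO and WT responses passed at neither time. Which part of the transcript the row reads is not known here, and RNA outside a deleted part can persist. The members' own SD over the 18 arrays ran from 0.03 to 0.64 log2 with a median of 0.16, against a median of 0.14 over all 23521 rows tested.

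Zinc finger genes of this group were lower 24 h after tape stripping in KO epidermis, and none passed the test as higher. In limma's fit over all 23521 rows, 31 of the 155 members fell (20%) and 0 rose at a Benjamini-Hochberg adjusted p under 0.05, against 6.47% of all rows lower and 3.09% higher. At an unadjusted p under 0.05, 51 members (32.9%) were lower and 2 (1.29%) were higher, against 12.2% and 10.7% of all rows. Differences over the 155 members ran from -1.51 to 0.26 log2, 114 of them (73.5%) were below 0, and their median was -0.16 log2 against 0.02 over all rows. In 58 members (37.4%) every KO 24 h array lay below every KO 0 h array, which held for 13.7% of all rows. Without KO 24 h replicate 3 the number of members that fell was 17, the lowest over the 6 arrays left out in turn.

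The same shift is visible array by array. The mean over the 155 members was 0.11, 0.12 and 0.11 log2 in the KO 0 h arrays, -0.07, -0.02 and -0.02 in the KO 6 h arrays, and -0.11, -0.08 and -0.13 in the KO 24 h arrays. In WT it was 0.12, 0.07 and 0.05 log2 in 0 h arrays, -0.01, 0.09 and 0.04 in 6 h arrays, and -0.04, -0.05 and -0.05 in 24 h arrays. The 24 h arrays of each genotype lay below its 0 h arrays, while the WT 6 h arrays overlapped the WT 0 h arrays. The means over all rows stayed between -0.01 and 0.02 log2 on every array. Fewer cells of a type and less RNA per cell cannot be told apart in these bulk sheets.

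**Figure D1:**
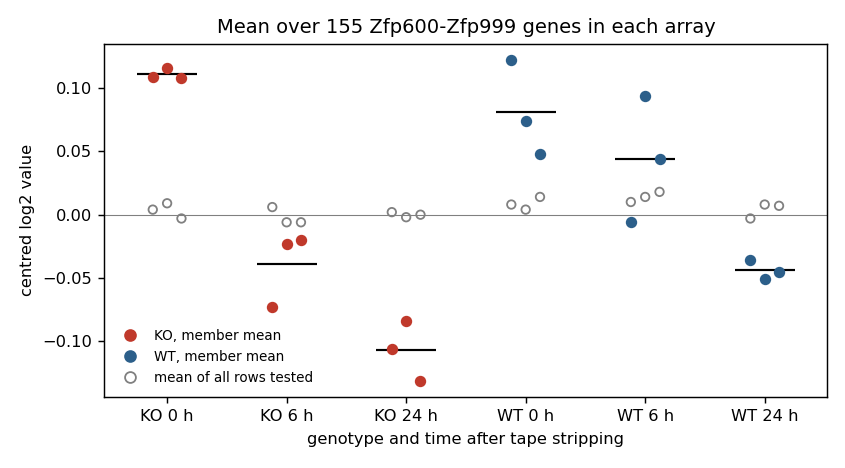
Mean centred log2 value over the 155 genes in each array (filled points, 3 per group; the bar is the group mean) and over all 23521 rows tested (open points). KO arrays lie in a narrow band at 0 h (0.11 to 0.12) and between -0.13 and -0.08 at 24 h, WT 24 h arrays sit at -0.05 to -0.04, and the means over all rows stay near 0.

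The members with the strongest statistics at 24 h in KO were Zfp760, Zfp809, Zfp652, Zfp939 and Zfp617. Zfp809 is the mouse KRAB zinc finger protein that recognises the proline tRNA primer-binding site of retroviruses and silences them through Trim28. Zfp652 has a human counterpart that binds DNA together with the corepressor CBFA2T3. Zfp760 and Zfp617 are described here by their values alone.

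Zfp760 stood at 0.45, 0.59 and 0.53 log2 in KO 0 h arrays, -0.33, -0.07 and 0.06 in KO 6 h arrays, and -0.54, -0.49 and -0.38 in KO 24 h arrays. In WT it stood at 0.42, -0.05 and 0.32 in 0 h arrays, 0.16, 0.49 and 0.04 in 6 h arrays, and -0.17, -0.04 and -0.07 in 24 h arrays. The KO 0 h arrays lay above all later KO arrays, whereas in WT the 24 h and 0 h arrays overlapped. The KO difference of 24 h from 0 h was -0.99 ± 0.13 log2 (SE, n = 3 each, limma adjusted p = 0.00135), and that in WT was -0.32 log2 (limma adjusted p = 0.298).

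Zfp809 was at 0.37, 0.54 and 0.48 log2 in KO 0 h arrays, -0.14, -0.24 and 0.35 in KO 6 h arrays, and -0.57, -0.23 and -0.60 in KO 24 h arrays. In WT it was at 0.25, 0.03 and -0.03 log2 in 0 h arrays, 0.12, 0.36 and 0.11 in 6 h arrays, and -0.37, -0.36 and -0.18 in 24 h arrays. In both genotypes each 24 h array lay below each 0 h array. The difference was -0.93 ± 0.14 log2 in KO (SE, n = 3 each, limma adjusted p = 0.00207), against -0.39 log2 in WT, which did not pass (limma adjusted p = 0.251).

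Zfp652 had 0.31, 0.33 and 0.36 log2 in KO 0 h arrays, -0.29, -0.07 and -0.09 in KO 6 h arrays and -0.28, -0.30 and -0.23 in KO 24 h arrays. In WT it had 0.18, 0.13 and 0.02 log2 in 0 h arrays, 0.01, 0.44 and 0.34 in 6 h arrays, and -0.24, -0.19 and -0.01 in 24 h arrays. All later KO arrays lay below the KO 0 h arrays, and all KO 6 h arrays lay below the WT 6 h arrays. It fell by 0.60 ± 0.09 log2 at 24 h in KO (SE, n = 3 each, limma adjusted p = 0.00232), and its WT difference was -0.26 log2 (limma adjusted p = 0.255).

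Zfp617 varied more between replicates, with 1.03, 0.54 and 0.36 log2 in KO 0 h arrays, -0.07, -0.28 and 0.33 in KO 6 h arrays and -0.45, -0.58 and -0.94 in KO 24 h arrays. WT arrays had 0.52, 0.36 and 0.61 log2 in 0 h arrays, -0.32, 0.40 and 0.01 in 6 h arrays, and -0.01, -0.15 and -0.57 in 24 h arrays. The 24 h arrays again lay below the 0 h arrays in each genotype. The difference was -1.30 ± 0.22 log2 in KO (SE, n = 3 each, limma adjusted p = 0.00318) and -0.74 log2 in WT (limma adjusted p = 0.161).

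**Figure D2:**
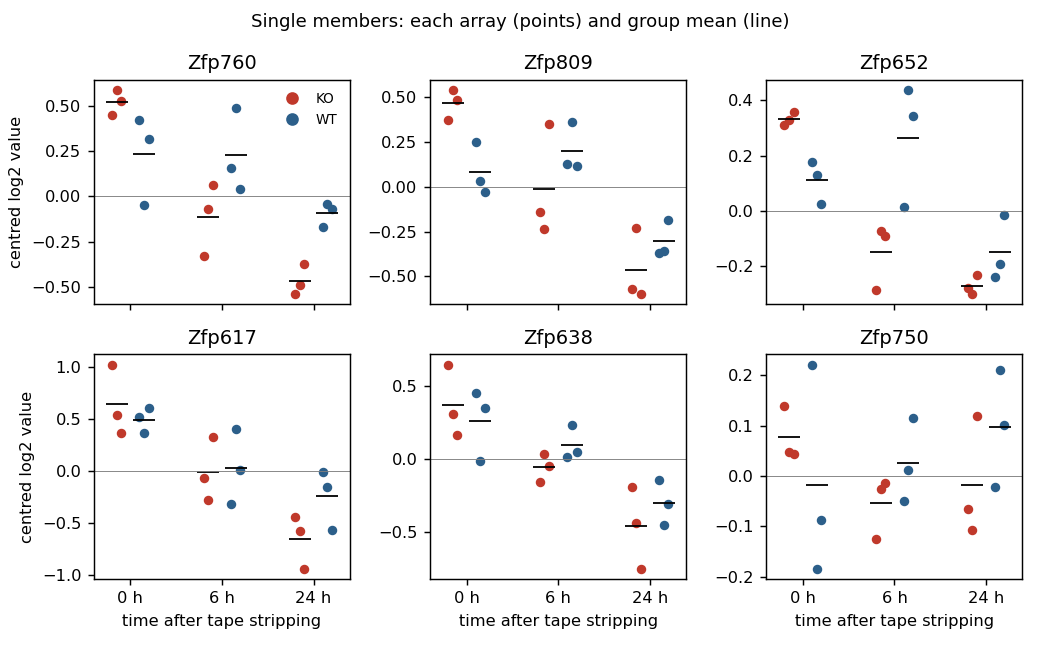
Centred log2 values of Zfp760, Zfp809, Zfp652, Zfp617, Zfp638 and Zfp750 in each array (points) with the group mean (line), KO left of WT at each time after tape stripping. By group mean the first 5 genes are lowest in KO at 24 h, while Zfp750 stays between -0.18 and 0.22 in all 18 arrays.

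The promoters of Zfp760, Zfp809, Zfp652 and Zfp617 are printed because these genes had the smallest p at 24 h in KO among the members measured by 1 row. The windows come from RefSeq on build GRCm38.p6 and run from 250 bases before to 50 bases after a gene's start. Where a gene had several windows, the one farthest upstream on its strand was taken. They are given 5′ to 3′ on the gene's strand, and capitals mark the CCAAT box, searched as CCAAT on both strands, so that ATTGG is the same box read from the other strand. Zfp760 lies at chr17:21707491-21707790 (+), Zfp809 at chr9:22225453-22225752 (+), Zfp652 at chr11:95748817-95749116 (+) and Zfp617 at chr8:71922575-71922874 (+).
Zfp760: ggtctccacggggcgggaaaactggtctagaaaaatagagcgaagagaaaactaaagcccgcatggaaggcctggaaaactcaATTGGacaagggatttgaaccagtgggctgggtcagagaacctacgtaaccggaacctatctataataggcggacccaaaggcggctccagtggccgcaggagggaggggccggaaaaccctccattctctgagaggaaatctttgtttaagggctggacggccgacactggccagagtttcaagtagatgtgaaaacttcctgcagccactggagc
Zfp809: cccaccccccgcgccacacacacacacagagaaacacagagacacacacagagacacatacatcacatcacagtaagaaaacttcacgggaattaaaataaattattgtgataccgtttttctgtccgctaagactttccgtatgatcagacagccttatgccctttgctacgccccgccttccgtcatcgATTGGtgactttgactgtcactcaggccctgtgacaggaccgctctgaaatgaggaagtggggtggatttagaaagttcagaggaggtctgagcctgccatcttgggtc
Zfp652: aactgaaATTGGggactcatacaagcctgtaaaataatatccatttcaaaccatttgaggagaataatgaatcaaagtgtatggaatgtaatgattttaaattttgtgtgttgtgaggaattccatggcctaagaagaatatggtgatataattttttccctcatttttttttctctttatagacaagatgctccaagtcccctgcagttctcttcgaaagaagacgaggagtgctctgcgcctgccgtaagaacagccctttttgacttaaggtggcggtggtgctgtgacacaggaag
Zfp617: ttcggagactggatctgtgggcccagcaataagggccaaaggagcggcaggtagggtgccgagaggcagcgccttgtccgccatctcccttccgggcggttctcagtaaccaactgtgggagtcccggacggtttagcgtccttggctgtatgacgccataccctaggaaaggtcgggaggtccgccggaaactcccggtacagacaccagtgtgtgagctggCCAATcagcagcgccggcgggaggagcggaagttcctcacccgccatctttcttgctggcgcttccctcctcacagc
Each of the 4 windows holds 1 CCAAT box, a motif that the factor NF-Y is known to bind, and none holds GCGTG, the core of the site bound by AhR with its partner ARNT.

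Promoter windows were found for 134 of the 155 members, among them 26 of the 31 that fell at 24 h in KO. The CCAAT box was in 61.5% of the windows of the members that fell and in 58.3% of those of the other 108 members, against 38.6% of the 16918 genes with a window and a tested row. GCGTG was in 34.6% of the members that fell, 37% of the other members and 39.1% of all genes. The TATA box (TATAAA) was in 3.85%, 2.78% and 12.9% in the same order, the GC box (GGGCGG) in 53.8%, 44.4% and 46.8%, and the ETS motif (CCGGAAG) in 19.2%, 14.8% and 11.8%. The AP-1 motif TGANTCA was in 7.69% of the members that fell, 3.7% of the others and 7.34% of all genes, and the CRE motif TGACGTCA was in no member's window and in 2.42% of all genes. All motifs were read on both strands, and no motif contains another. The windows of the members that fell had a median GC content of 52.2% and 11 CpG, the other members 54.3% and 12, and all genes 56.3% and 13. Close copies share promoter sequence, so these shares do not rest on independent windows, and a match is a description of the letters only.

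Of the other members that fell at 24 h in KO, Zfp960 had the largest difference, and Zfp638, whose protein acts with C/EBP factors in fat cell differentiation, had one of -0.83 ± 0.15 log2 (SE, n = 3 each, limma adjusted p = 0.00481). Zfp638 stood at -0.19, -0.43 and -0.75 log2 in KO 24 h arrays, against 0.65, 0.31 and 0.17 in KO 0 h arrays. In WT it stood at -0.14, -0.45 and -0.31 log2 in 24 h arrays, against 0.45, -0.01 and 0.35 in 0 h arrays. The 24 h arrays lay below the 0 h arrays in each genotype, and the WT difference of -0.56 log2 did not pass (limma adjusted p = 0.134).

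Zfp960 stood at -0.50, -0.62 and -1.87 log2 in KO 24 h arrays, against 0.94, 0.39 and 0.20 in KO 0 h arrays. The groups did not overlap, but 1 KO 24 h array lay far below the other two, and the difference of -1.51 ± 0.29 log2 (SE, n = 3 each, limma adjusted p = 0.00609) has the widest error of the 12 members with the smallest p. Zfp942 stood at -0.83, -0.42 and -0.89 log2 in KO 24 h arrays, against 0.92, 0.04 and 0.18 in KO 0 h arrays, a difference of -1.09 log2 (limma adjusted p = 0.008). Zfp931 stood at -0.43, -0.51 and -0.96 log2 in KO 24 h arrays, against 0.83, 0.13 and 0.39 in KO 0 h arrays, a difference of -1.08 log2 (limma adjusted p = 0.00481). In both genes the groups did not overlap, and the KO 0 h arrays were spread more widely than the KO 24 h arrays.

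The remaining members named by the rule of smallest p were Zfp945, Zfp846, Zfp949 and Zfp759, with KO differences of -0.60, -0.72, -0.47 and -0.51 log2 at 24 h. Zfp704 fell by 0.53 log2 in KO (limma adjusted p = 0.0438). Zfp932, a mouse KRAB zinc finger protein that represses endogenous retroviruses of the ERVK class, fell by 0.44 log2 (limma adjusted p = 0.032). Zfp800 fell by 0.65 log2 (limma adjusted p = 0.0159) and Zfp654 by 0.93 log2 (limma adjusted p = 0.0167). When each of the 6 arrays of this comparison was left out in turn, Zfp704 passed 0 times, Zfp932 1 time, Zfp800 4 times and Zfp654 3 times, while the 12 members with the smallest p and Zfp942 passed 6 times each. Over the 31 genes the differences ran from -1.51 to -0.22 log2 with a median of -0.64. In 30 of them every KO 24 h array lay below every KO 0 h array, which their choice on these same arrays favours. The exception was Zfp935, where 1 KO 0 h array, at -0.07, lay below the highest KO 24 h array, at -0.02 log2.

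**Figure D3:**
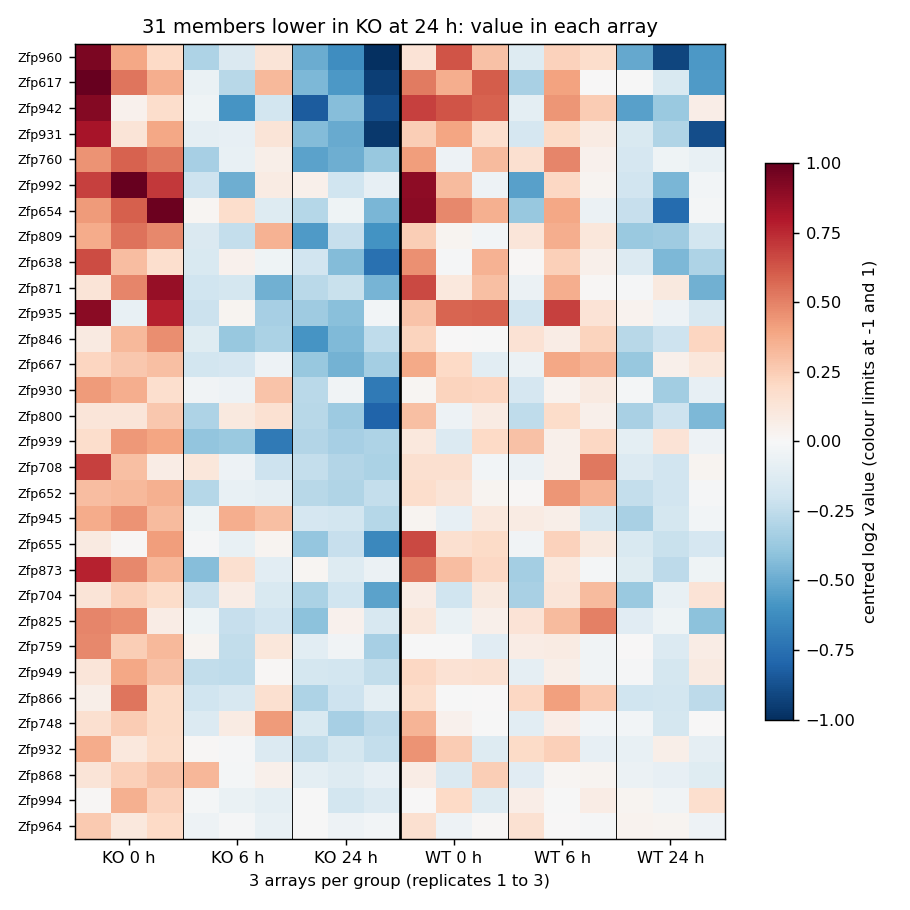
Centred log2 value of the 31 members that fell in KO at 24 h (rows, largest fall at the top) in each of the 18 arrays (columns, KO left and WT right of the thick line, each by time). KO 0 h columns are high and KO 24 h columns low in nearly every row, which is how the rows were chosen. The WT columns entered that choice only through the spread over all 18 arrays, not through their own differences. They are mostly high at 0 h and mostly low at 24 h.

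In WT epidermis the same comparison called no member. At 24 h against 0 h, 0 of 155 members passed limma's adjusted p under 0.05 in either direction, against 0.0298% of all rows lower, and the smallest adjusted p of a member was 0.0982 (Zfp654, -0.92 log2). At an unadjusted p under 0.05, 34 members (21.9%) were lower and 4 (2.58%) were higher, against 6.69% and 5.84% of all rows. The median over the members was -0.08 log2 against 0.01 over all rows, and 105 of 155 (67.7%) were below 0. In 36 members (23.2%) every WT 24 h array lay below every WT 0 h array, against 8.43% of all rows. Zfp654 and Zfp942 were the lowest by p in WT, at -0.92 log2 each, and Zfp637 (0.34 log2) and Zfp773 (0.18 log2) the highest.

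The KO and WT responses at 24 h share no array, so the WT values can be read beside the choice made in KO. Of the 31 members that fell in KO, 29 (93.5%) were below 0 in WT, and 17 of the 31 were lower in WT at an unadjusted p under 0.05, as were 697 of all 1522 rows that were lower in KO. Their median difference was -0.64 log2 in KO and -0.27 log2 in WT, and the KO difference was the larger fall in all 31, as the choice in KO favours. Among those 1522 rows, 1386 (91.1%) were below 0 in WT, with medians of -0.58 log2 in KO and -0.25 log2 in WT, so the members' share was near that of all such rows. Across the 155 members the KO and WT differences had a Pearson correlation of 0.73, against 0.51 across all rows; genes on 1 set of arrays are not independent points.

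**Figure D4:**
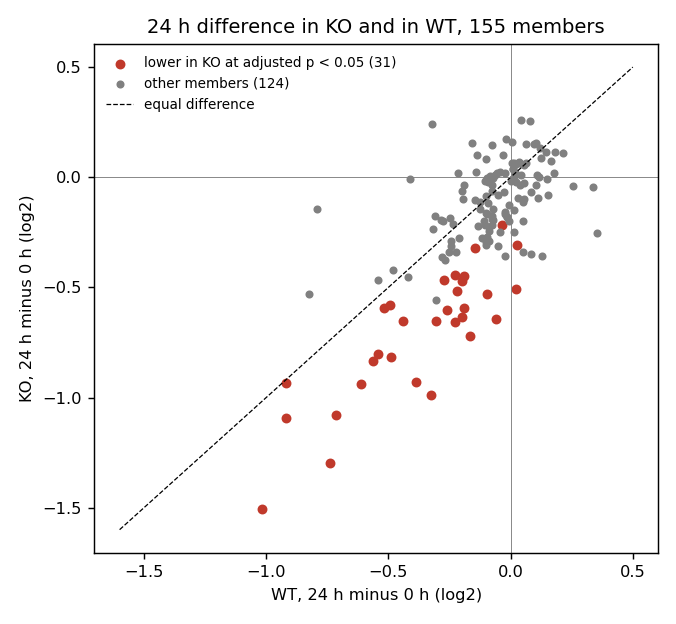
Difference of 24 h from 0 h in KO (vertical axis, log2) against that in WT (horizontal axis, log2) for the 155 members, with the 31 that fell in KO filled in colour and the dashed line at equal difference. The 31 lie below the dashed line, and 29 of them lie left of 0 in WT.

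Whether the response itself differed between the genotypes was tested as KO minus WT. At 24 h, 0 of 155 members passed in limma (0% of all rows), 12 members (7.74%) were lower and 1 (0.645%) was higher at an unadjusted p under 0.05, against 4.59% and 4.62% of all rows, and the smallest adjusted p was 0.245. That gene was Zfp747, whose difference of responses was 0.56 log2, followed by p by Zfp939 at -0.59, Zfp759 at -0.53 and, with the next smallest p above 0, Zfp616 at 0.19 log2. A larger fall in KO than in WT at 24 h was therefore not shown for any single member.

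At 6 h the fall in KO was already present in part of the group. In limma 10 members (6.45%) fell and 0 rose in KO at 6 h against 0 h, against 3.41% of all rows lower and 1.57% higher, and 34 members (21.9%) were lower and 1 (0.645%) higher at an unadjusted p under 0.05, against 11.5% and 9.2% of all rows. The 10 were Zfp939 (-0.83 log2), Zfp652 (-0.48), Zfp949 (-0.43), Zfp760 (-0.63), Zfp992 (-1.07), Zfp873 (-0.65), Zfp846 (-0.56), Zfp871 (-0.78), Zfp759 (-0.38) and Zfp964 (-0.23). Zfp992 was at -0.20, -0.49 and 0.08 log2 in KO 6 h arrays, against 0.69, 1.19 and 0.71 in KO 0 h arrays, with no overlap (limma adjusted p = 0.0215). Zfp871 was at -0.20, -0.17 and -0.48 log2 in KO 6 h arrays, against 0.13, 0.49 and 0.87 in KO 0 h arrays, again with no overlap (limma adjusted p = 0.0349). The 6 h and 24 h comparisons share the KO 0 h arrays; the 24 h values of the same 10 genes, in the same order, were -0.64, -0.60, -0.47, -0.99, -0.94, -0.58, -0.72, -0.81, -0.51 and -0.22 log2. Without KO 0 h replicate 2 only 2 of the 155 members passed at 6 h, without KO 0 h replicate 3 only 3, and without KO 6 h replicate 2 only 4.

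In WT at 6 h against 0 h, 0 members passed in limma, as did 0% of all rows, with 8 members (5.16%) lower and 1 (0.645%) higher at an unadjusted p under 0.05, against 2.02% and 2.6% of all rows. The members' median was -0.02 log2 against 0.01 over all rows. Of the 10 genes that fell in KO at 6 h, 5 were below 0 in WT, with medians of -0.60 log2 in KO and 0.00 log2 in WT. Among all 802 rows lower in KO at 6 h, 310 (38.7%) were below 0 in WT, with medians of -0.56 log2 in KO and 0.04 log2 in WT. Zfp972 (-0.34 log2) and Zfp715 (-0.31) had the smallest p among those lower in WT, and Zfp827 (0.26) and Zfp825 (0.29) among those higher. Zfp827 has a human counterpart that brings the NuRD complex to telomeres.

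KO against WT at 6 h showed 2 members lower (1.29%) and 0 higher in limma, against 1.82% of all rows lower and 0.366% higher, so the members' share was below that of all rows. At an unadjusted p under 0.05, 19 members (12.3%) were lower and 2 (1.29%) higher, against 10.1% and 5.66% of all rows, and the members' median was -0.06 log2 against 0.01 over all rows. Zfp652 was 0.42 log2 lower in KO (limma adjusted p = 0.0372), with no overlap between KO and WT arrays, and passed in 1 of the 6 fits that left out an array. Its 6 h response also differed between the genotypes, by -0.64 ± 0.13 log2 (SE, limma adjusted p = 0.0469), and passed in 2 of 12 such fits, at 0.0536 with a replicate block. In that test of the difference of 6 h responses, 2 members passed on the lower side and 0 on the higher, against 0.497% of all rows lower, with 17 (11%) lower and 2 (1.29%) higher at an unadjusted p under 0.05, against 8.07% and 5.03% of all rows.

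The other member in both comparisons was Zfp939, and its rows disagreed. In the row used it was at -0.40, -0.37 and -0.70 log2 in KO 6 h arrays, against 0.29, 0.05 and 0.21 in WT 6 h arrays, a KO difference of -0.68 log2 (limma adjusted p = 0.0112). Its 6 h response differed by -0.95 ± 0.15 log2 between the genotypes (SE, limma adjusted p = 0.0185), and its KO difference of 24 h from 0 h was -0.64 log2 (limma adjusted p = 0.00314). The second row that carries the name gave 0.12 log2 for KO against WT at 6 h, 0.09 for KO at 6 h against 0 h and 0.03 for KO at 24 h against 0 h, and passed in none of them. The calls for Zfp939 rest on the choice of row, which took the row of larger SD on these arrays. Probes for zinc finger genes may also read near-identical copies, so values of single members are uncertain to that extent.

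In unstressed epidermis no member passed the test between the genotypes. At 0 h, 0 of 155 passed in limma, against 0.085% of all rows lower in KO, with 12 members (7.74%) higher and 5 (3.23%) lower at an unadjusted p under 0.05, against 3.82% and 4.66% of all rows. The members' median was 0.04 log2, against 0.00 over all rows. The smallest p above 0 belonged to Zfp759 (0.39 log2, limma adjusted p = 0.205) and Zfp945 (0.37), and below 0 to Zfp747 (-0.40) and Zfp719 (-0.27). These KO 0 h arrays are the baseline of both KO responses.

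At 24 h, KO against WT called 0 members, against 0.00425% of all rows lower, with 0 higher and 8 (5.16%) lower at an unadjusted p under 0.05, against 3.08% and 3.64% of all rows, and a median of -0.04 log2. Zfp760 (-0.37 log2), Zfp939 (-0.31), Zfp616 (0.13) and Zfp641 (0.18) had the smallest p in each direction. Averaged over the 3 times, 0 members passed, against 0.323% of all rows lower, with 18 (11.6%) lower and 4 (2.58%) higher at an unadjusted p under 0.05, against 7.78% and 4.48% of all rows. Zfp939 (-0.23 log2), Zfp771 (-0.25), Zfp945 (0.18) and Zfp957 (0.16) had the smallest p there.

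No contrast passed for Zfp750. It was at 0.14, 0.05 and 0.04 log2 in KO 0 h arrays, -0.12, -0.03 and -0.01 in KO 6 h arrays, and -0.06, -0.11 and 0.12 in KO 24 h arrays. In WT it was at 0.22, -0.18 and -0.09 log2 in 0 h arrays, -0.05, 0.01 and 0.12 in 6 h arrays, and -0.02, 0.21 and 0.10 in 24 h arrays. The KO 6 h arrays lay below the KO 0 h arrays, and the other stripped groups overlapped their 0 h arrays. The 6 h difference was -0.13 log2 in KO (limma adjusted p = 0.477), and the 24 h difference was -0.09 log2 in KO (limma adjusted p = 0.625) and 0.11 log2 in WT (limma adjusted p = 0.69). The members closest to it by Pearson correlation over the 18 arrays were Zfp608 (0.64), Zfp668 (0.56), Zfp872 (0.56), Zfp775 (0.55) and Zfp661 (0.53).

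Other members with a known role passed in no contrast. Zfp703, a corepressor whose human counterpart ZNF703 is a breast cancer oncogene, was at 0.11, 0.09 and 0.13 log2 in KO 24 h arrays, against -0.28, -0.21 and 0.06 in KO 0 h arrays (0.25 log2, limma adjusted p = 0.393). Zfp608 and its paralogue Zfp609, the first a repressor of the Rag genes in thymocytes, had KO differences of -0.12 and -0.20 log2 at 24 h. Zfp622, needed for maturation of the large ribosomal subunit, had 0.15 log2, and Zfp706, which in mouse embryonic stem cells promotes exit from self-renewal, had -0.20 log2. Zfp830, a splicing-associated protein, had 0.00 log2, Zfp687 had -0.22 and Zfp668 had -0.17 log2. Zfp618, a partner of UHRF2, had 0.02 log2 and the smallest SD over the 18 arrays of any member (0.03 log2).

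The members lie on nearly every chromosome, some of them in runs of neighbours. Runs were sought among the 153 members that the gene table lists as protein coding. Counting as a run at least 4 members with at most 5 coding genes between neighbours, 9 runs held 57 members. Of these, 12 fell in KO at 24 h (21.1%), against 19 of 96 members outside runs (19.8%), and the median difference was -0.14 log2 in runs and -0.17 log2 outside them. The run of 14 on chromosome 17 from Zfp677 to Zfp945 held 4 that fell and had a median of -0.27 log2 in KO and -0.22 log2 in WT. The run of 6 on chromosome 8 from Zfp930 to Zfp866 also held 4 that fell, with medians of -0.33 log2 in KO and -0.21 log2 in WT. The run of 6 on chromosome 7 from Zfp771 to Zfp689 held 0, with a median of 0.04 log2 in KO, and in the run of 4 on chromosome 6 from Zfp786 to Zfp746 all were above 0. The runs named were picked after their values were seen, as was chromosome 13, where 5 of 9 members fell in KO with a median of -0.51 log2, against 2 of 34 on chromosome 7.

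Zinc finger genes outside this range gave shares of the same order in KO at 24 h. Of 181 Zfp genes numbered below 600, 37 fell (20.4%) and 0 rose in KO at 24 h, with a median of -0.12 log2. Of all rows 6.47% were lower and 3.09% higher in that comparison. In KO at 6 h the share was larger than in Zfp600 to Zfp999: 21 of the 181 fell (11.6%) and 1 rose, against 6.45% of the 155 lower. Of all rows 3.41% were lower and 1.57% higher at 6 h. Of 37 BTB zinc finger genes (Zbtb), 8 fell (21.6%) and 0 rose at 24 h in KO, and of 28 SCAN zinc finger genes (Zscan and Zkscan), 4 fell (14.3%) and 0 rose. In WT at 24 h none of these 3 lists had a member that passed in limma, against 0.0298% of all rows lower. At an unadjusted p under 0.05 they had 20 of 181, 4 of 37 and 1 of 28 lower and 4, 1 and 0 higher. Of all rows 6.69% were lower and 5.84% higher there, and of the 155 genes 21.9% and 2.58%.

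**Figure D5:**
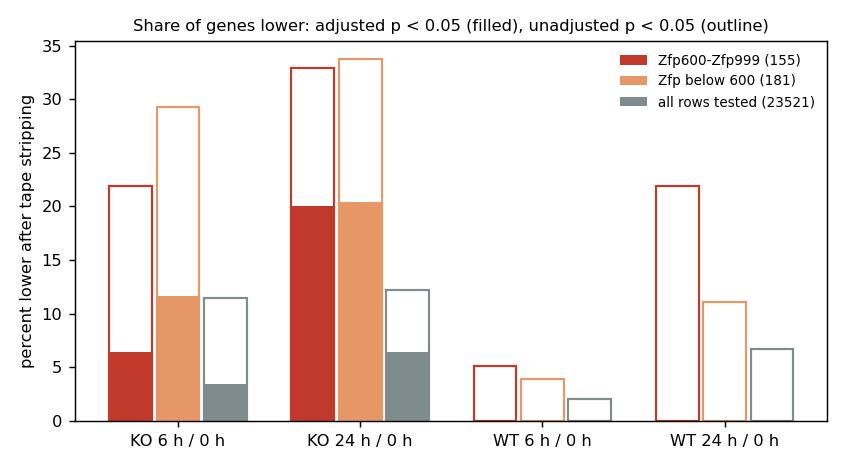
Percent of genes lower after tape stripping in each response, for Zfp600 to Zfp999 (155), Zfp genes numbered below 600 (181) and all rows tested (23521); filled bars are limma adjusted p under 0.05, outlined bars unadjusted p under 0.05. In KO at 24 h, 20% of the 155 genes and 20.4% of the 181 pass, against 6.47% of all rows. None of the 155 or the 181 genes passes in WT.

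The partners through which KRAB zinc finger proteins act moved in both directions. Of 33 measured genes for KRAB corepressors and heterochromatin, 5 rose and 6 fell in KO at 24 h, against 3.09% of all rows higher and 6.47% lower. Trim28, the corepressor that KRAB domains recruit, rose by 0.37 log2 (limma adjusted p = 0.0415), and Uhrf1 (0.52 log2) and Dnmt1 (0.46 log2), which maintain DNA methylation in dividing cells, rose with it. Gatad2a (0.30 log2) and Rbbp4 (0.28 log2), subunits of NuRD, rose as well. Tasor (-1.08 log2), which builds the HUSH silencing complex, Atrx (-0.95), a chromatin remodeller, Smarcad1 (-0.83), another remodeller, Atf7ip (-0.59), the partner of Setdb1, Hdac2 (-0.51), a histone deacetylase, and Morc3 (-0.41) fell. Setdb1 itself had -0.08 log2 (limma adjusted p = 0.811). In WT at 24 h none of the 33 passed in limma, against 0.0298% of all rows lower. At an unadjusted p under 0.05, 4 were lower and 1 higher, against 6.69% and 5.84% of all rows. In WT 29 of the 33 were below 0, with a median of -0.13 log2, against 21 and -0.05 log2 in KO at 24 h. Of all rows 45.1% were below 0 in WT and 41% in KO.

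Around Zfp750, 3 of 28 measured genes of the human ZNF750 network and its late differentiation targets rose and 3 (10.7%) fell in KO at 24 h, against 3.09% of all rows higher and 6.47% lower. Cebpb (0.55 log2), Krt1 (0.34 log2) and Ctbp1 (0.24 log2) rose, while Spink5 (-0.80), Ivl (-0.70) and Trp63 (-0.37), which encodes p63, fell. At 6 h, Ovol1 (-0.94 log2), Cebpa (-0.54) and Klf4 (-0.30) were lower in KO than in WT in limma. These are 10.7% of the 28, with 0 higher, against 1.82% of all rows lower and 0.366% higher. At an unadjusted p under 0.05, 13 of the 28 were lower and 0 higher, against 10.1% and 5.66% of all rows. In all, 24 of the 28 were below 0 there, with a median of -0.24 log2. At 0 h, Krt1 was lower in KO (-0.67 log2, limma adjusted p = 0.0212).

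Markers of other cell types moved with some of these groups. The mean over 9 markers of epidermal T cells was -0.73 to -0.61 log2 in KO 24 h arrays and -0.91 to -0.22 in KO 0 h arrays, against 0.05 to 0.49 in WT 24 h arrays and 0.23 to 0.63 in WT 0 h arrays, so the genotypes did not overlap. The mean over 9 neutrophil and monocyte markers was 0.11 to 0.45 log2 in KO 24 h arrays, against -0.14 to 0.05 in KO 0 h arrays, and S100a9 passed. Between 24 h and 0 h in KO, Ptprc of the T cell list, Mitf of 7 melanocyte markers and Trp63 of 6 basal keratinocyte markers fell, and Krt14 (basal) and Elovl3 of 6 sebaceous gland markers rose. Krt1 rose and Ivl fell among 8 markers of differentiated keratinocytes. None of 8 Langerhans cell, 10 hair follicle, 6 dermal fibroblast, 5 endothelial and 5 skeletal muscle markers passed at 24 h. Of all rows 3.09% were higher and 6.47% lower in KO at 24 h against 0 h. In KO at 6 h against 0 h, Thy1 of the T cell list rose, and Mitf and Lhx2 (hair follicle) fell. Of all rows 1.57% were higher and 3.41% lower there. No Langerhans cell marker passed at 6 h, but their mean was 0.089 to 0.157 log2 in KO 6 h arrays, against -0.635 to 0.038 in KO 0 h arrays. Because levels were removed from each row, which of these markers are at or near 0 is unknown, and their part in the zinc finger results was not tested.

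Arrays also carry a 4-digit number in the labels, whose meaning the sources used here do not give. All 24 h arrays have a number from 3000 up, while 1 KO 0 h, 2 WT 0 h, 2 KO 6 h and 2 WT 6 h arrays have one below 3000. Among arrays from 3000 up alone, which left 2 KO 0 h arrays, 29 members fell and 1 rose in KO at 24 h. With the number class as a block 33 members passed. The shares of all rows in these 2 fits are not given here, and whether the number class plays a part was not tested. At 6 h each class left 1 or 2 arrays a group, too few to compare the counts of passing members between the classes. Among arrays below 3000, with 2 KO 6 h and 2 WT 6 h arrays, 10 members passed in KO against WT. Their directions and the share of all rows in that fit are not given here, so this count is not a result about the members.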

How the data were processed

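RNA from epidermal sheets was converted to biotin-labelled cDNA for Affymetrix arrays, per the labels' protocols. The authors deposited a table of 33793 rows by 18 arrays, and 0 of its columns belong to other samples. The deposited values were read as log2, since they run from -6.4 to 4.3, and the median was 0 within 1e-06 in 100% of rows; if they are natural logs, every difference would be larger by the same factor. The sources used here do not give the background correction, summarisation, normalisation or software. The number of arrays limits the precision.

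The platform's probe table gave 1 symbol to 23521 rows, several to 1814 and none to 8458; the 23521 were tested. limma 3.58.1 in R 4.3.3 fitted a mean for each of the 6 groups over all 18 arrays (12 residual and 2.76 prior degrees of freedom). The 10 moderated 2-sided contrasts were KO against WT at each time and on average, 6 h and 24 h against 0 h in each genotype, and the genotype difference of each response. The Benjamini-Hochberg adjustment ran over the 23521 p-values of each contrast, with 0.05 as the threshold. The fit was tested on simulated data. With 3 arrays against 3 the smallest 2-sided p of an exact permutation test is 0.1, and no such test was made. Each array was taken as 1 animal, since the titles number samples separately and the design text mentions littermates; p-values measure the spread between these samples.

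Named members follow a rule: up to 12 per direction with the smallest p among those passing, the 2 smallest p per direction where none passed, the 10 with the largest SD, those with a known role, members whose rows disagree, the 5 most similar to Zfp750, and Ahr. The members and gene lists were chosen with earlier results of these data known. A few further members and runs were named after their values were seen. No protein sequences were used here, so members were not grouped by KRAB domain or finger number. The gene table of GRCm38.p6 served for names and gene neighbours, and promoter windows are RefSeq's on that build.

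Replicate numbers were taken from the titles. Deviations of same-numbered arrays from their group means correlated between -0.46 and 0.25 over 45 pairs, 9 of them above 0.1, so the numbers were not taken to pair arrays. Alternatives were a second quantile normalisation, a shift to a common median, all rows, the row of smallest SD, a robust variance model, array weights, only the arrays of a comparison, the replicate number or the number class as a block, each number class alone, a threshold of 0.1, and each array left out. Figures were drawn with matplotlib 3.10.9.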

Additional observations from a re-analysis of the deposited data

Results flagged for a closer look

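For 2 members the 6 h response differed between the genotypes by a test of the difference itself. The KO response minus the WT response was -0.64 log2 for Zfp652 (limma adjusted p = 0.0469) and -0.95 log2 for Zfp939 (limma adjusted p = 0.0185). The second row of Zfp939 gave 0.10 log2.

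In 3 further members, among the named ones only, all KO arrays moved one way and all WT arrays the other way from their 0 h group. The rule for naming used p-values from these same arrays. Members not named were not searched, and the share over all rows was not counted. For Zfp825 at 6 h the difference of responses was -0.79 log2 (limma adjusted p = 0.0777), with -0.04, -0.23 and -0.19 log2 in KO 6 h arrays and 0.13, 0.32 and 0.50 in WT 6 h arrays. For Zfp972 at 6 h it was 0.59 log2 (limma adjusted p = 0.0553), with 0.04, 0.27 and 0.04 log2 in KO 6 h arrays and -0.25, -0.11 and -0.28 in WT 6 h arrays. For Zfp747 at 24 h it was 0.56 log2 (limma adjusted p = 0.245), with 0.02, 0.23 and 0.07 log2 in KO 24 h arrays and 0.02, -0.18 and -0.02 in WT 24 h arrays. The test of the difference did not pass in these 3.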

How the results depend on the processing

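The 31 members that fell in KO at 24 h numbered 27 to 40 under the alternatives that kept all 3 arrays a group, and 29 (with 1 that rose) on arrays numbered from 3000 up, 30 calls in all; with each array left out in turn the count was 17 to 26. The KO 24 h median ran from -0.16 to -0.12 log2 over arrays left out.

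Counts from a number class alone are left out below where a compared group kept 1 array. Shares of all rows under these settings are not given here, so the counts show only how the calls vary with the processing. KO at 6 h called 10, against 18 at an adjusted p under 0.1, and 2 to 9 with an array left out. KO against WT at 6 h called 2, against 1 after a second quantile normalisation and 1 with the smallest-SD rows. It called 8 at 0.1, 0 on the comparison's arrays alone, 10 below 3000, and 0 to 3 with an array left out. The genotype difference of 6 h responses called 2, against 1 after quantile normalisation, with all rows, the smallest-SD rows and the robust model. It called 6 with array weights, 4 at 0.1, 0 on its arrays alone, and 0 to 5 with an array left out. WT at 24 h called 0, against 2 after quantile normalisation and 1 at 0.1. KO against WT on average called 0 to 1 with an array left out.

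Medians that moved by over the replicate SD of 0.026 log2 were KO against WT at 6 h after quantile normalisation (-0.032) and several from a number class alone. Those were KO at 6 h below 3000 (-0.053) and from 3000 up (-0.154). From 3000 up they were also WT at 6 h (-0.078), WT at 24 h (-0.125) and the genotype differences at 6 h (-0.048) and 24 h (-0.040). In each of these number-class comparisons at least 1 group kept 1 array, so these medians do not rest on replicates there. With an array left out the medians ran from -0.130 to -0.077 (KO 6 h), -0.071 to -0.036 (KO against WT 6 h), -0.065 to -0.034 (24 h), 0.017 to 0.055 (0 h), -0.036 to -0.006 (WT 6 h), -0.095 to -0.073 (WT 24 h), -0.114 to -0.066 (6 h difference) and -0.111 to -0.058 (24 h difference).

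Zfp939 reversed with its other row: 0.12 (KO against WT 6 h), 0.09 (KO 6 h), 0.03 (KO 24 h) and 0.10 log2 (6 h difference). With the replicate block, 28 members fell in KO at 24 h and 9 at 6 h, 2 differed at 6 h between genotypes, and 1 passed the 6 h difference of responses. The cause of these changes was not tested beyond the settings' own construction of fewer arrays or more rows. Small differences and dim rows are limited by the 3 arrays a group.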
